A study of Mus musculus with 10 samples.

Results

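The genes described here encode 10 integrin chains of mouse mast cells: the α chains αE (Itgae, the CD103 antigen), α4 (Itga4), α5 (Itga5), α7 (Itga7), αv (Itgav) and αIIb (Itga2b, the CD41 antigen), and the β chains β1 (Itgb1), β2 (Itgb2), β3 (Itgb3) and β7 (Itgb7). They were chosen by name and found in the table of gene counts by their Ensembl identifiers, as 10 of 49671 gene rows. All 10 passed the filter on low counts, which kept 11247 genes. Itgae and Itga7 passed it only through libraries with transforming growth factor beta (TGF-β): none of the 4 libraries without TGF-β reached its cutoff for either gene. These genes therefore had to differ between groups once they were tested.

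The cells were primary mast cells cultured from bone marrow (BMMCs). All came from wild type C57BL/6 mice, and the labels give 6-8 weeks as the age and also as the time the cultures had spent in interleukin 3 (IL-3). All 6 groups shared IL-3, for which the growth protocol states 5 ng/mL and the sample source states 10 ng/mL. A first pair of libraries had IL-3 alone, with no time given. A second pair had 100 ng/mL stem cell factor (SCF, which binds the KIT receptor). The combinations of SCF and TGF-β were made at 1 ng/mL TGF-β and at 10 ng/mL, with a pair of libraries for each and no SCF dose given. TGF-β was also given alone, with n = 1 at each of these doses. The stimuli lasted 72 h. The library of 1 ng/mL TGF-β alone carries replicate number 2 and that of 10 ng/mL carries number 1, so the dose cannot be told apart from the library there. The labels do not tie the replicates to separate cultures or mice, and p-values then measure only the spread between these samples, which may be technical.

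An integrin is a transmembrane receptor made of 1 α and 1 β chain, which must pair before they leave the endoplasmic reticulum. αE pairs only with β7 and binds E-cadherin on epithelium, whereas α4 pairs with β7, giving the receptor for the mucosal addressin MAdCAM-1, or with β1, giving a receptor for VCAM-1 and fibronectin. Mast cell progenitors need α4β7 to reach the intestine, and αEβ7 is known from intraepithelial mast cells and T cells, where TGF-β is a known inducer of the αE gene.

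Gene counts ranged from 1237382 to 2323916 per library, so that 3 counts, the floor used here, corresponded to 1.26 to 2.53 CPM (the depth-scaled count, with libraries scaled by the trimmed mean of M values). The libraries of TGF-β alone had the fewest, 1295048 at 1 ng/mL and 1237382 at 10 ng/mL. Intervals and floors cover counting error only, since the reads passed through PCR and carry no molecular identifiers. None of 8 mast cell markers was at 0 in any library, and they summed to between 53027 and 67368 CPM with TGF-β and between 63591 and 89853 CPM without it. Of 8 T cell markers, 7 were at 0 in every library and the list summed to at most 0.771 CPM. The lists of neutrophils, fibroblasts, dendritic cells and macrophages summed to at most 1.68, 3.85, 16.9 and 36.0 CPM. The basophil list of 4 markers summed to 461 to 712 CPM with TGF-β and to 552 to 675 CPM without it, mostly from Cd200r3, at 428 to 676 CPM. Its protease Mcpt8 stood at 0.515 and 1.39 CPM in IL-3, 6.97 and 6.27 in SCF, 11.7, 23.0, 11.1 and 24.8 in the combinations, and 1.68 and 6.94 in TGF-β alone. Mcpt8 was higher in all 4 combinations than in the other 6 libraries, and the rest of the list did not follow it. Prss34 stood at 13.9 and 15.3 CPM in IL-3 and at 2.49 and 4.39 in SCF. In the combinations it stood at 9.21, 9.44, 7.55 and 1.08 CPM, and in TGF-β alone at 5.05 and 17.7. Il3ra stood at 29.9 and 25.1 CPM in SCF and at 13.5 to 20.6 in the combinations, and Cd200r3 overlapped between these groups. The part of basophils in the results was not tested. In bulk RNA, fewer cells of a type and less RNA per cell cannot be told apart.

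Expressed per kilobase of merged exons, so that genes can be compared, 2 chains were far above the others: αIIb and β7. In IL-3 alone Itga2b stood at 291 ± 33.8 CPM per kilobase (SD, n = 2) and Itgb7 at 255 ± 44.4, and their libraries overlapped. They were followed by Itgb2 at 27.3 ± 8.87, Itgb1 at 10.3 ± 0.233, Itgb3 at 7.93 ± 0.978 and Itga5 at 6.18 ± 1.65 CPM per kilobase. Among these neighbours, the libraries of β3 and α5 overlapped, and the others did not. At the low end were Itgav at 1.16 ± 0.559, Itga4 at 0.766 ± 0.166, Itgae at 0.228 ± 0.323 and Itga7 at 0.0636 ± 0.0899 CPM per kilobase. The libraries of Itga4 and Itgae did not overlap, those of the other neighbours at the low end did, and the last value rests on 2 counts.

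Below Itga2b and Itgb7 the order differed between groups. Itgae was 9th of the 10 in IL-3 and in SCF, 7th in SCF with 1 ng/mL TGF-β and 4th in SCF with 10 ng/mL TGF-β, at 16.7 ± 11.2 CPM per kilobase. In the latter group its libraries overlapped with those of Itgb1 at 21.0 ± 3.70 above it and of Itga5 at 8.76 ± 2.46 below it. Without SCF it was 6th at 1 ng/mL and 5th at 10 ng/mL TGF-β, at 4.04 and 9.76 CPM per kilobase. Itgb2 went from 3rd in IL-3 and SCF to 7th in SCF with 10 ng/mL TGF-β. Itga2b was 1st and Itgb7 2nd in every group but 1 ng/mL TGF-β alone, where Itgb7 was 1st at 295 against 239 CPM per kilobase. Scaling by the longest transcript in place of merged exons put Itga2b 1st there too.

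**Figure D1:**
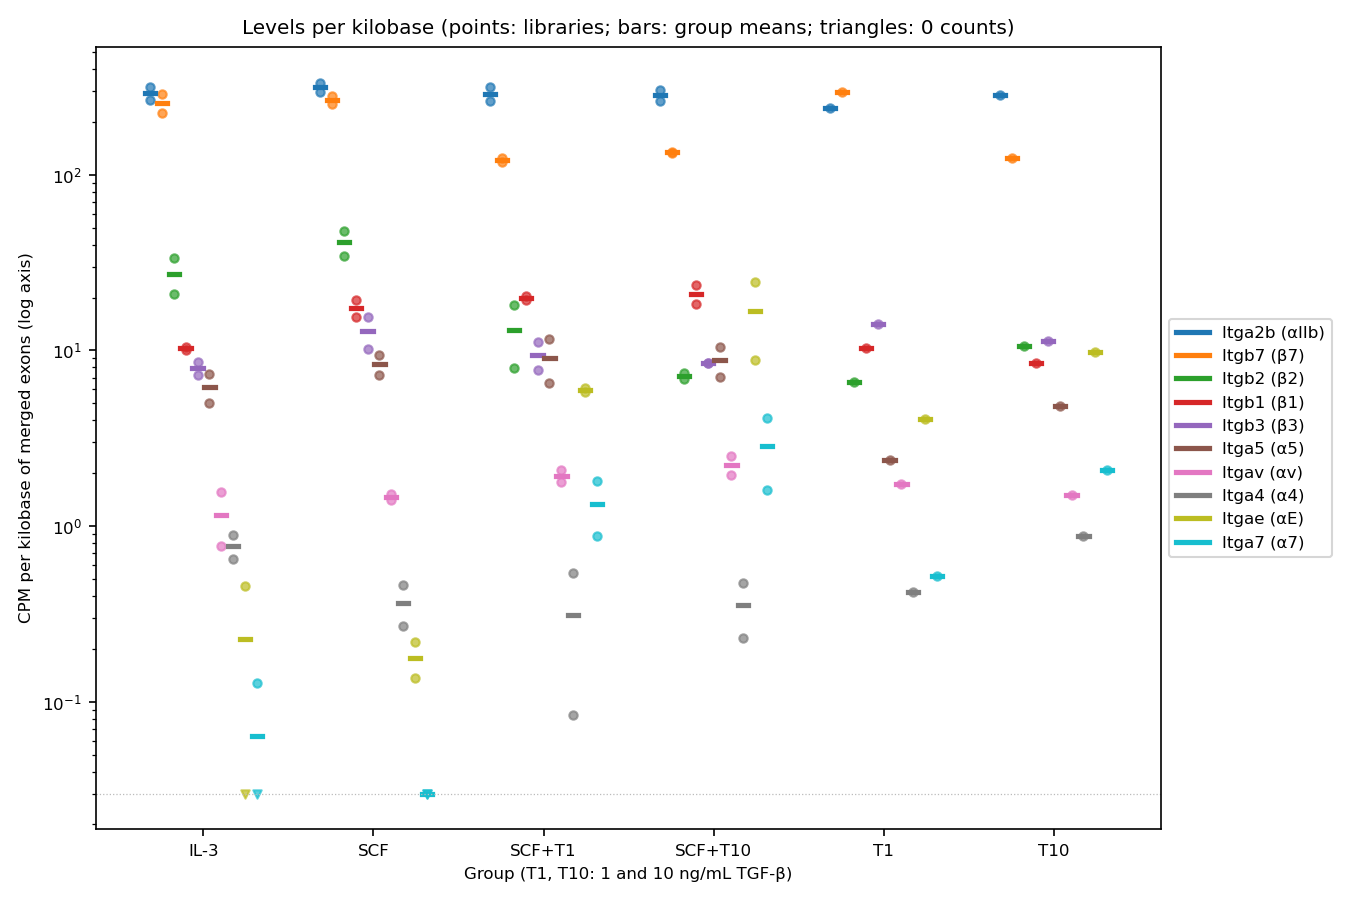
Level of each of the 10 integrin chains in CPM per kilobase of merged exons (log axis) in each group, with 1 point per library, coloured by gene, a bar at the group mean and triangles for libraries with 0 counts. Itga2b and Itgb7 lie above 100 CPM per kilobase in all 10 libraries, and Itgae runs from 0 in 1 IL-3 library to 24.6 in 1 library of SCF with 10 ng/mL TGF-β.

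Genes were tested with edgeR's quasi-likelihood test, and the threshold for a call was 0.05 on the p adjusted by Benjamini-Hochberg over all 11247 tested genes. With SCF against IL-3, 1 of the 10 chains was called, Itgb1, and it was higher. Over all tested genes 9.17% were called in either direction (5.71% higher, 3.46% lower), so the share of the chains was near the background. With 1 ng/mL TGF-β added to SCF, Itgae and Itga7 rose and Itgb7 and Itgb2 fell, while 4.64% of all genes were called (1.89% higher, 2.75% lower). With 10 ng/mL added, Itgae and Itga7 were again called as higher and Itgb7 and Itgb2 as lower, while 8.37% of all genes were called (3.78% higher, 4.59% lower). Nothing is read from the number of chains called against these shares, because Itgae and Itga7 passed the filter only through libraries with TGF-β. Both doses were set against the same 2 SCF libraries. The median log2 fold change of the 10 chains was -0.0097 at 1 ng/mL and 0.0136 at 10 ng/mL, beside 0.0062 and -0.00053 over all genes.

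With TGF-β alone, taken as the mean of both doses, against IL-3, Itgae was called as higher and Itgb2 as lower, while 3.48% of all genes were called (1.36% higher, 2.12% lower), and the same limit holds for Itgae. With SCF and TGF-β together against TGF-β alone, 3 of 10 were called, Itgb1 and Itga5 as higher and Itgb7 as lower, against 24.7% of all genes (13.3% higher, 11.4% lower), so this share was near the background. The median log2 fold change of the 10 chains was -0.14 in the former comparison, beside -0.02 over all genes, and 0.29 in the latter, beside -0.01. Between 10 and 1 ng/mL TGF-β in the presence of SCF, none of the 10 was called by edgeR, DESeq2 or limma-voom, while edgeR called 0.0178% of all genes (0.00889% higher, 0.00889% lower). At an unadjusted p under 0.05 there were 3, 2 and 3 chains with the respective tools. For the interaction of TGF-β and SCF, none was called by any of the 3 tools, against 0.293% of all genes by edgeR, and 2 chains had an unadjusted p under 0.05 with each. Nothing is read from the counts at an unadjusted p in either comparison, because the share of all genes at that threshold is not given here.

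**Figure D2:**
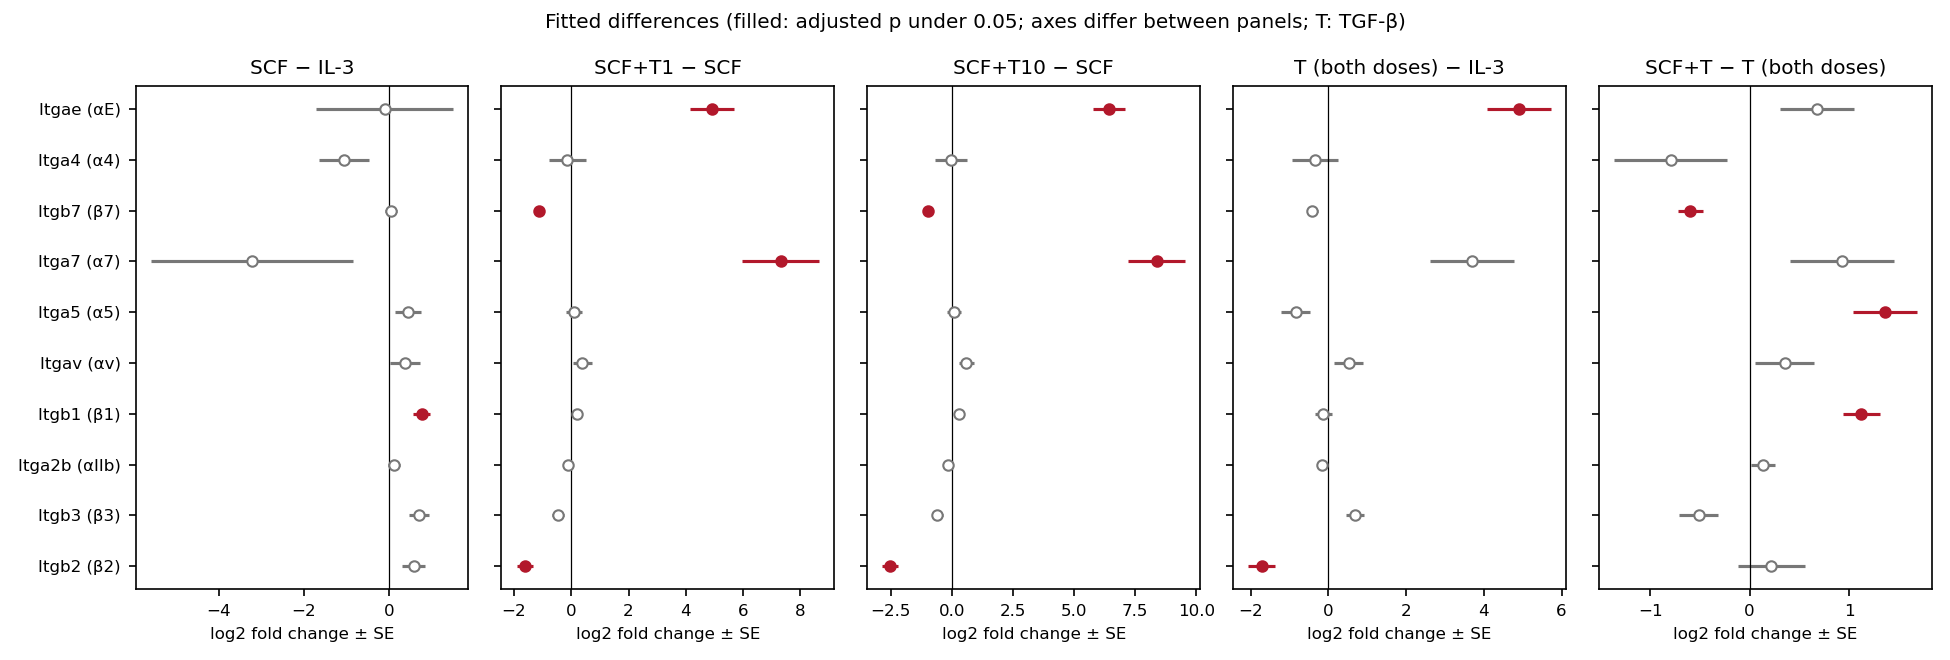
Log2 fold change of each chain (horizontal axis) with its approximate standard error in 5 of the comparisons, with 1 panel each and its own axis, filled where edgeR's adjusted p was under 0.05. In the panels of TGF-β added to SCF, Itgae (4.93 and 6.43) and Itga7 lie to the right and Itgb2 (-1.63 and -2.54) and Itgb7 to the left, and fitted values of Itga7 against SCF, where it had 0 counts, depend on a prior count and are not bounds.

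αE and β7, the chains of the CD103 integrin, moved in opposite directions when TGF-β was added to SCF. Itgae (ENSMUSG00000005947, GRCm38 chromosome 11, 73090583 to 73147446, plus strand) had 0 and 3 counts in the IL-3 libraries and 2 and 1 in the SCF libraries. With SCF and 1 ng/mL TGF-β it had 67 and 45 counts (28.0 and 26.5 CPM), and with SCF and 10 ng/mL it had 254 and 75 (113 and 40.5 CPM). With TGF-β alone it had 22 counts (18.5 CPM) at 1 ng/mL and 58 (44.7 CPM) at 10 ng/mL. All 6 libraries with TGF-β lay above all 4 without it.

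Against SCF, pooled Itgae counts were 32.9-fold higher with 1 ng/mL TGF-β (95% counting interval 10.99 to 162) and 96.3-fold higher with 10 ng/mL (32.7 to 469). The corresponding log2 fold changes were 4.93 ± 0.77 (SE, adjusted p = 0.000804, edgeR) and 6.43 ± 0.66 (adjusted p = 7.2e-06, edgeR). For 1 ng/mL, limma-voom gave an adjusted p of 0.0848, the only one of 18 alternatives past 0.05, over which the adjusted p ran from 2.7e-18 to 0.0848. Without replicate 1 of the 10 ng/mL combination, its higher library, the latter was 5.49 and still called. With TGF-β alone the pooled counts were 36.2-fold above IL-3 (11.96 to 179), with a log2 fold change of 4.91 ± 0.82 (adjusted p = 0.00179, edgeR). Itgae was tested only because libraries with TGF-β passed the filter. Its calls against groups without TGF-β, here and below, therefore add no evidence of a rise beyond the counts.

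The call for Itgae with TGF-β alone was lost in 3 of 18 alternatives, over which the adjusted p ran from 8.17e-16 to 0.111. Without replicate 1 of IL-3 the log2 fold change was 3.73 (adjusted p = 0.0646), without the 10 ng/mL library 4.27 (0.0504), and limma-voom gave an adjusted p of 0.111. It was 5.55 without the 1 ng/mL library and still called, and without replicate 2 of IL-3 the comparison rests on 0 control counts. Between 10 and 1 ng/mL TGF-β with SCF the log2 difference was 1.501 ± 0.36 (unadjusted p = 0.000702, adjusted p = 1.00, edgeR). The higher dose had the higher CPM in both libraries, but its replicates were 113 and 40.5 CPM apart. Without the second, lower library of 10 ng/mL the difference was 2.04, and without the first, higher one it was 0.57. With all 10 libraries kept, the fit without a filter called this difference (adjusted p = 5.98e-06, edgeR), and DESeq2, limma-voom and the replicate block did not. Over 18 alternatives the adjusted p ran from 5.98e-06 to 1. The combinations against TGF-β alone gave 0.67 ± 0.37 (adjusted p = 0.201, edgeR), which did not pass the test, although it did without a filter (adjusted p = 0.0435, edgeR). Without the lower library of SCF with 10 ng/mL TGF-β the value was 0.95. It was 0.041 without the library of 1 ng/mL TGF-β alone and 1.31 without that of 10 ng/mL TGF-β alone.

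αE is also known from T cells and from a subset of dendritic cells. The CD3, Cd4 and T cell receptor genes had 0 counts in all 10 libraries. The dendritic cell list of 7 markers summed to 5.86 to 12.9 CPM with TGF-β, where Flt3, Xcr1, Clec9a, Siglech and H2-Aa were at 0, and to 10.5 to 16.9 CPM without it, where Xcr1 and Siglech were at 0. Haspin, an intronless gene on the opposite strand inside the Itgae locus, shares no exon base with Itgae. Its level was 24.0 and 18.9 CPM in SCF with 10 ng/mL TGF-β, 13.4 and 28.9 with 1 ng/mL, 12.9 and 8.77 in SCF, 7.72 and 0.697 in IL-3, and 3.37 and 14.6 in TGF-β alone at 1 and 10 ng/mL. The Haspin ranges with and without TGF-β overlapped, unlike those of Itgae.

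Itgb7 (ENSMUSG00000001281, chromosome 15, 102215995 to 102231944, minus strand) is the common partner of αE and α4. It stood at 621 and 795 CPM in IL-3 and at 697 and 778 CPM in SCF. In the combinations it stood at 344 and 326 CPM at 1 ng/mL and at 373 and 369 CPM at 10 ng/mL. With TGF-β alone it stood at 818 CPM at 1 ng/mL and at 345 CPM at 10 ng/mL. The 4 libraries with both factors and the library of 10 ng/mL TGF-β alone were low, while 1 ng/mL TGF-β alone was the highest of all 10 libraries.

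Itgb7 fell by 1.14 ± 0.14 on the log2 scale when 1 ng/mL TGF-β was added to SCF (adjusted p = 8.96e-05, edgeR) and by 0.99 ± 0.14 when 10 ng/mL was added (adjusted p = 0.000204, edgeR). These calls were kept in all 18 alternatives of each comparison. The doses differed from each other by 0.15 ± 0.14 (adjusted p = 1.00, edgeR). Against IL-3, TGF-β alone gave -0.41 ± 0.14 (adjusted p = 0.137, edgeR), a mean of unlike libraries: the 10 ng/mL library alone gave -1.02 (adjusted p = 0.00484) and the 1 ng/mL library alone 0.21 (adjusted p = 0.661), the ends of the range over 18 alternatives. The combinations against TGF-β alone gave -0.59 ± 0.12 (adjusted p = 0.00191, edgeR), and 0.027 (adjusted p = 0.940) without the library of 1 ng/mL TGF-β alone, with 5.11e-05 the lowest adjusted p over the alternatives. The interaction was -0.65 ± 0.19 (adjusted p = 0.232, edgeR), and -1.28 (adjusted p = 0.0220) without the library of 10 ng/mL TGF-β alone, over a range of 0.0220 to 0.986.

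α4, the other partner of β7 and also a partner of β1, was scarce. Itga4 (ENSMUSG00000027009, chromosome 2, 79255426 to 79333123, plus strand) stood at 12.4 and 9.06 CPM in IL-3, 6.47 and 3.76 in SCF, 7.53 and 1.18 in SCF with 1 ng/mL TGF-β, and 6.66 and 3.24 in SCF with 10 ng/mL. It stood at 5.90 and 12.3 CPM in TGF-β alone at 1 and 10 ng/mL. Both IL-3 libraries were above both SCF libraries, but the difference of -1.04 ± 0.59 did not pass the test (adjusted p = 0.299, edgeR). The gene had 120 counts in all 10 libraries together, and 8.04% of its exon bases are shared with Cerkl on the opposite strand, whose reads cannot be told apart where the counting did not use strand.

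Set side by side in each library, the α chains available to β7 changed in their proportion. The log2 ratio of Itgae to Itgb7 per kilobase ran from -11.96 to -9.07 in the 4 libraries without TGF-β and from -6.16 to -2.45 in the 6 with it. Put the other way, Itgb7 exceeded Itgae 539-fold to 3991-fold without TGF-β and 5.46-fold to 71.4-fold with it. The value of 3991 is from an IL-3 library with 0 Itgae counts and is set by the 0.5 counts added. With 2 counts added the excess was 378-fold to 999-fold without TGF-β and 5.44-fold to 67.0-fold with it. β7 thus stayed the more abundant transcript in all 10 libraries. The log2 ratio of Itgae to Itga4 ran from -4.01 to -0.34 without TGF-β and from 3.19 to 5.80 with it: α4 was the higher of these α chains in all 4 libraries without TGF-β and αE in all 6 with it. The ratio of Itga4 to Itgb7 overlapped, from -9.91 to -7.96 without and -10.1 to -7.10 with TGF-β. Adding 2 counts in place of 0.5 to each chain left the ranges of Itgae to Itgb7 and of Itgae to Itga4 apart, although the latter then reached 0.19 without TGF-β. These ratios describe transcripts and carry no test.

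**Figure D3:**
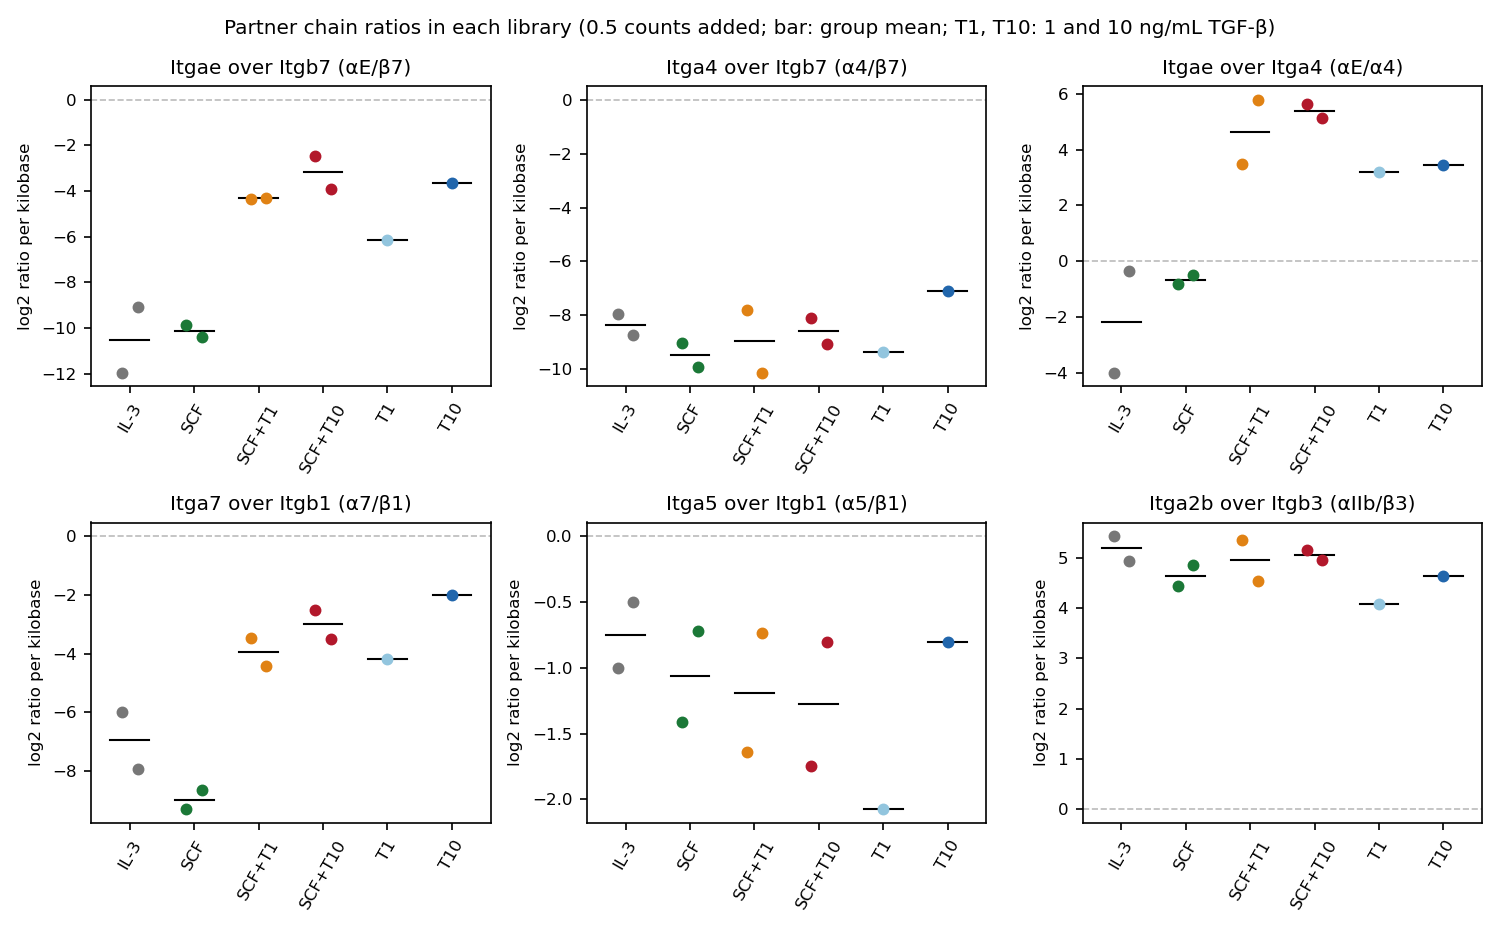
Log2 ratio of partner chains per kilobase of merged exons in each of the 10 libraries, with 0.5 counts added to each chain. The ratios Itgae to Itgb7, Itgae to Itga4 and Itga7 to Itgb1 are separate between the 6 libraries with TGF-β and the 4 without it, and the ranges of the other pairs overlap.

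β1, the most widely shared partner, was called as higher with SCF both without and with TGF-β. Itgb1 (ENSMUSG00000025809, chromosome 8, 128685654 to 128733200, plus strand) stood at 41.2 and 42.5 CPM in IL-3 and at 42.1 and 34.7 CPM in TGF-β alone at 1 and 10 ng/mL. It stood at 79.1 and 63.3 CPM in SCF, 83.3 and 79.1 in SCF with 1 ng/mL TGF-β, and 96.4 and 75.0 in SCF with 10 ng/mL. All 6 libraries with SCF lay above all 4 without it.

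Itgb1 rose by 0.77 ± 0.20 on the log2 scale with SCF against IL-3 (adjusted p = 0.0220, edgeR). That call was lost without replicate 1 of IL-3 (adjusted p = 0.103), without replicate 2 of IL-3 (0.122), without replicate 1 of SCF (0.149) and with DESeq2 (0.127), 4 of 18 alternatives, over which the adjusted p ran from 0.00664 to 0.149. In the presence of TGF-β, SCF gave a rise of 1.13 ± 0.19 (adjusted p = 0.000341, edgeR), which was called in all 18 alternatives. TGF-β added to SCF gave 0.18 ± 0.18 at 1 ng/mL and 0.27 ± 0.18 at 10 ng/mL (adjusted p = 0.706 and 0.461, edgeR), which did not pass the test.

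α5, which forms the classical fibronectin receptor with β1, was called in 1 comparison. Itga5 (ENSMUSG00000000555, chromosome 15, 103344286 to 103366763, minus strand) stood at 24.7 and 36.2 CPM in IL-3, 35.8 and 46.4 in SCF, 32.2 and 57.2 in SCF with 1 ng/mL TGF-β and 34.6 and 51.8 in SCF with 10 ng/mL. It stood at 11.8 and 23.9 CPM in TGF-β alone at 1 and 10 ng/mL. Both libraries of TGF-β alone were lower than the other 8. With SCF and TGF-β against TGF-β alone Itga5 rose by 1.36 ± 0.32 (adjusted p = 0.00496, edgeR). The value was 0.86 (adjusted p = 0.164) without the library of 1 ng/mL TGF-β alone, the only one of 18 alternatives in which the call was lost, over a range of 8.45e-06 to 0.164. SCF against IL-3 gave 0.44 ± 0.30 (adjusted p = 0.414) and TGF-β alone against IL-3 -0.83 ± 0.37 (adjusted p = 0.287, edgeR). The interaction, 0.92 ± 0.45, did not pass the test either (adjusted p = 0.564, edgeR).

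α7, a laminin receptor chain known mainly from muscle, pairs with β1 and was detected almost only with TGF-β. Itga7 (ENSMUSG00000025348, chromosome 10, 128933818 to 128958282, plus strand) had 2 and 0 counts in IL-3 and 0 in both SCF libraries. It had 35 and 12 counts in SCF with 1 ng/mL TGF-β (14.6 and 7.08 CPM), 75 and 24 with 10 ng/mL (33.3 and 12.9 CPM), and 5 and 22 in TGF-β alone at 1 and 10 ng/mL (4.21 and 17.0 CPM). All 6 libraries with TGF-β lay above the 4 without it.

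Pooled Itga7 counts were 13.8-fold above a floor of 3 counts over the SCF group with 1 ng/mL TGF-β and 29.0-fold above it with 10 ng/mL. These folds leave out the counting error and the spread of the TGF-β libraries, so they are not lower bounds. The fitted log2 fold changes against SCF, which depend on a prior count, were 7.32 (adjusted p = 0.00357, edgeR) and 8.38 (adjusted p = 0.000204, edgeR). Itga7 too passed the filter only through libraries with TGF-β, so its calls against groups without TGF-β add no evidence of a rise. The doses differed by 1.06 ± 0.46 (unadjusted p = 0.0355, adjusted p = 1.00, edgeR), and their CPM ranges overlapped. With TGF-β alone, pooled counts were 18.3-fold above IL-3 (95% counting interval 4.61 to 159) at a log2 fold change of 3.69 ± 1.07, which did not pass the test (adjusted p = 0.0727, edgeR). It passed in 9 of 18 alternatives, over which the adjusted p ran from 0.000901 to 0.460. Among them were the fits without the 1 ng/mL library (4.70, adjusted p = 0.0206) and without any 1 of the 4 libraries of SCF with TGF-β (0.0400 to 0.0484). The combinations against TGF-β alone gave 0.93 ± 0.53 (adjusted p = 0.213, edgeR), and -0.064 without the library of 1 ng/mL TGF-β alone. The log2 ratio of Itga7 to Itgb1 per kilobase ran from -9.30 to -6.00 without TGF-β and from -4.42 to -2.00 with it, so β1 remained the higher transcript. Of its exon bases, 9 are shared with Mettl7b on the opposite strand, which had at most 1 count in a library.

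αv, a partner of β1 and β3 and part of the integrins that release latent TGF-β, was low in all groups. Itgav (ENSMUSG00000027087, chromosome 2, 83724397 to 83806916, plus strand) stood at 8.23 and 16.7 CPM in IL-3, 16.4 and 15.0 in SCF, 19.3 and 22.4 in SCF with 1 ng/mL TGF-β, 20.9 and 27.0 with 10 ng/mL, and 18.5 and 16.2 in TGF-β alone. The libraries with both factors were the highest, but TGF-β added to SCF gave 0.39 ± 0.32 at 1 ng/mL and 0.59 ± 0.32 at 10 ng/mL, neither of which passed the test (adjusted p = 0.635 and 0.317, edgeR). A noncoding gene on the opposite strand, Gm13684, shares 5.9% of its exon bases. The log2 ratios of Itgav to Itgb1 and of Itga5 to Itgb1 overlapped between libraries with and without TGF-β.

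Sequence upstream of the genes was looked at for the 3 called chains that have an entry among the RefSeq promoter windows (GRCm38.p6), which hold 6 of the 10 chains: Itgb7, Itga4, Itgb1, Itga2b, Itgav and Itga5. Each line runs 5′ to 3′ on the gene's strand over the 240 bases that end 11 bases before the start that RefSeq annotates, which for Itgb7 and Itga5 is not the GENCODE start given above. The windows are shown because Itgb7 fell when TGF-β was added to SCF, Itgb1 rose with SCF, and Itga5 was called higher in the combinations against TGF-β alone. Capitals mark matches on either strand to CAGAC (the SMAD box), CATGTG (an E-box bound by MITF-type factors) and GGAAG (the core of ETS sites), none of which overlap each other here.
Itgb7 (chr15:102231946-102232185, minus strand): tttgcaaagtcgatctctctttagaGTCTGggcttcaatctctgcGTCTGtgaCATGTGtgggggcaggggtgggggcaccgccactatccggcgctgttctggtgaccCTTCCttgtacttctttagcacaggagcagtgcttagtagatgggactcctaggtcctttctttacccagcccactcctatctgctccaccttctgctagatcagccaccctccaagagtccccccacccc
Itgb1 (chr8:128685404-128685643, plus strand): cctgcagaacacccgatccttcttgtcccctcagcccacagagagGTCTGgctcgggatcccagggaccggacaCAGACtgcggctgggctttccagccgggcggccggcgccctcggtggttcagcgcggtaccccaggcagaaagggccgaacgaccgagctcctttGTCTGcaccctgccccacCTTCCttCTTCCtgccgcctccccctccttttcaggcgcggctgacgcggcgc
Itga5 (chr15:103366802-103367041, minus strand): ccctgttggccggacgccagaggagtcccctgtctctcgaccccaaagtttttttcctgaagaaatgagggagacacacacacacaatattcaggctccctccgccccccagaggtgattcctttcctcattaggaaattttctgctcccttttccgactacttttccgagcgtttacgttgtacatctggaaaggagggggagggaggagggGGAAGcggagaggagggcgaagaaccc

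The Itgb7 window held the SMAD box at 225 and 205, the E-box at 197 and the ETS core at 141 bases before the RefSeq start. The Itgb1 window held the SMAD box 3 times and the ETS core 2 times, and the Itga5 window held the ETS core once, 37 bases before it. Of 32851 windows of this length, 40.9% held the SMAD box, 11.9% the E-box and 62.2% the ETS core on either strand. Such short matches are frequent, and they describe the sequence rather than a bound site.

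αIIb and β3 form the fibrinogen receptor of platelets and are both expressed by bone marrow-derived mast cells. Itga2b (ENSMUSG00000034664, chromosome 11, 102453297 to 102470122, minus strand) was the steadiest of the abundant chains, at 1715 and 1455 CPM in IL-3, 1826 and 1618 in SCF, 1729 and 1432 in SCF with 1 ng/mL TGF-β, 1657 and 1439 with 10 ng/mL, and 1305 and 1545 in TGF-β alone at 1 and 10 ng/mL. It was called in no comparison. SCF against IL-3 gave 0.12 ± 0.14 (adjusted p = 0.653) and SCF with 10 ng/mL TGF-β against SCF gave -0.15 ± 0.14 (adjusted p = 0.604, edgeR).

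Itgb3 (ENSMUSG00000020689, chromosome 11, 104608000 to 104670476, plus strand) stood at 42.7 and 50.9 CPM in IL-3 and at 91.1 and 60.2 CPM in SCF. It stood at 45.6 and 66.1 CPM in SCF with 1 ng/mL TGF-β, 49.7 and 50.2 with 10 ng/mL, and 83.4 and 67.0 in TGF-β alone at 1 and 10 ng/mL. The libraries with either factor alone were thus above both IL-3 libraries, while those with both factors overlapped with IL-3. No comparison called it.

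SCF against IL-3 gave 0.71 ± 0.23 for Itgb3 (adjusted p = 0.0621, edgeR), and it was called without replicate 2 of SCF (0.98, adjusted p = 0.0369) and without either library of the 1 ng/mL combination (adjusted p = 0.0442 and 0.0455). Over its 18 alternatives the adjusted p ran from 0.00479 to 0.434. TGF-β alone against IL-3 gave 0.69 ± 0.24 (adjusted p = 0.140, edgeR), and it was called in a fit of only the groups compared (0.0266) and without the second libraries of the 3 groups with SCF (0.0480), over a range of 0.0266 to 0.478. TGF-β added to SCF gave -0.47 ± 0.22 at 1 ng/mL (adjusted p = 0.305, called without those second libraries at 0.0285, over a range of 0.0285 to 0.943) and -0.61 ± 0.22 at 10 ng/mL (adjusted p = 0.110, edgeR), the latter -0.87 without replicate 2 of SCF (adjusted p = 0.0403, over a range of 0.0403 to 0.675). The combinations against TGF-β alone gave -0.51 ± 0.20 (adjusted p = 0.0709, edgeR). It was called without replicate 1 of SCF (adjusted p = 0.0488) and without replicate 2 of the 1 ng/mL combination (0.0344), over a range of 0.0227 to 0.411. The interaction was -1.22 ± 0.30, with an unadjusted p of 0.000868 and an adjusted p of 0.136 by edgeR. It was called in 3 of 17 alternatives: without a filter (0.00852), with a replicate block (0.0451) and without the second libraries (-1.61, adjusted p = 0.00129), over a range of 0.00129 to 0.460.

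The log2 ratio of Itga2b to Itgb3 per kilobase ran from 4.44 to 5.43 without TGF-β and from 4.08 to 5.35 with it, so αIIb exceeded β3 in all 10 libraries. Of 10 megakaryocyte and platelet markers, Pf4 and Ppbp were at 0 in every library. The list summed to between 525 and 755 CPM without TGF-β and between 609 and 786 CPM with it, carried mainly by Gp1ba, Gp5 and Vwf.

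**Figure D4:**
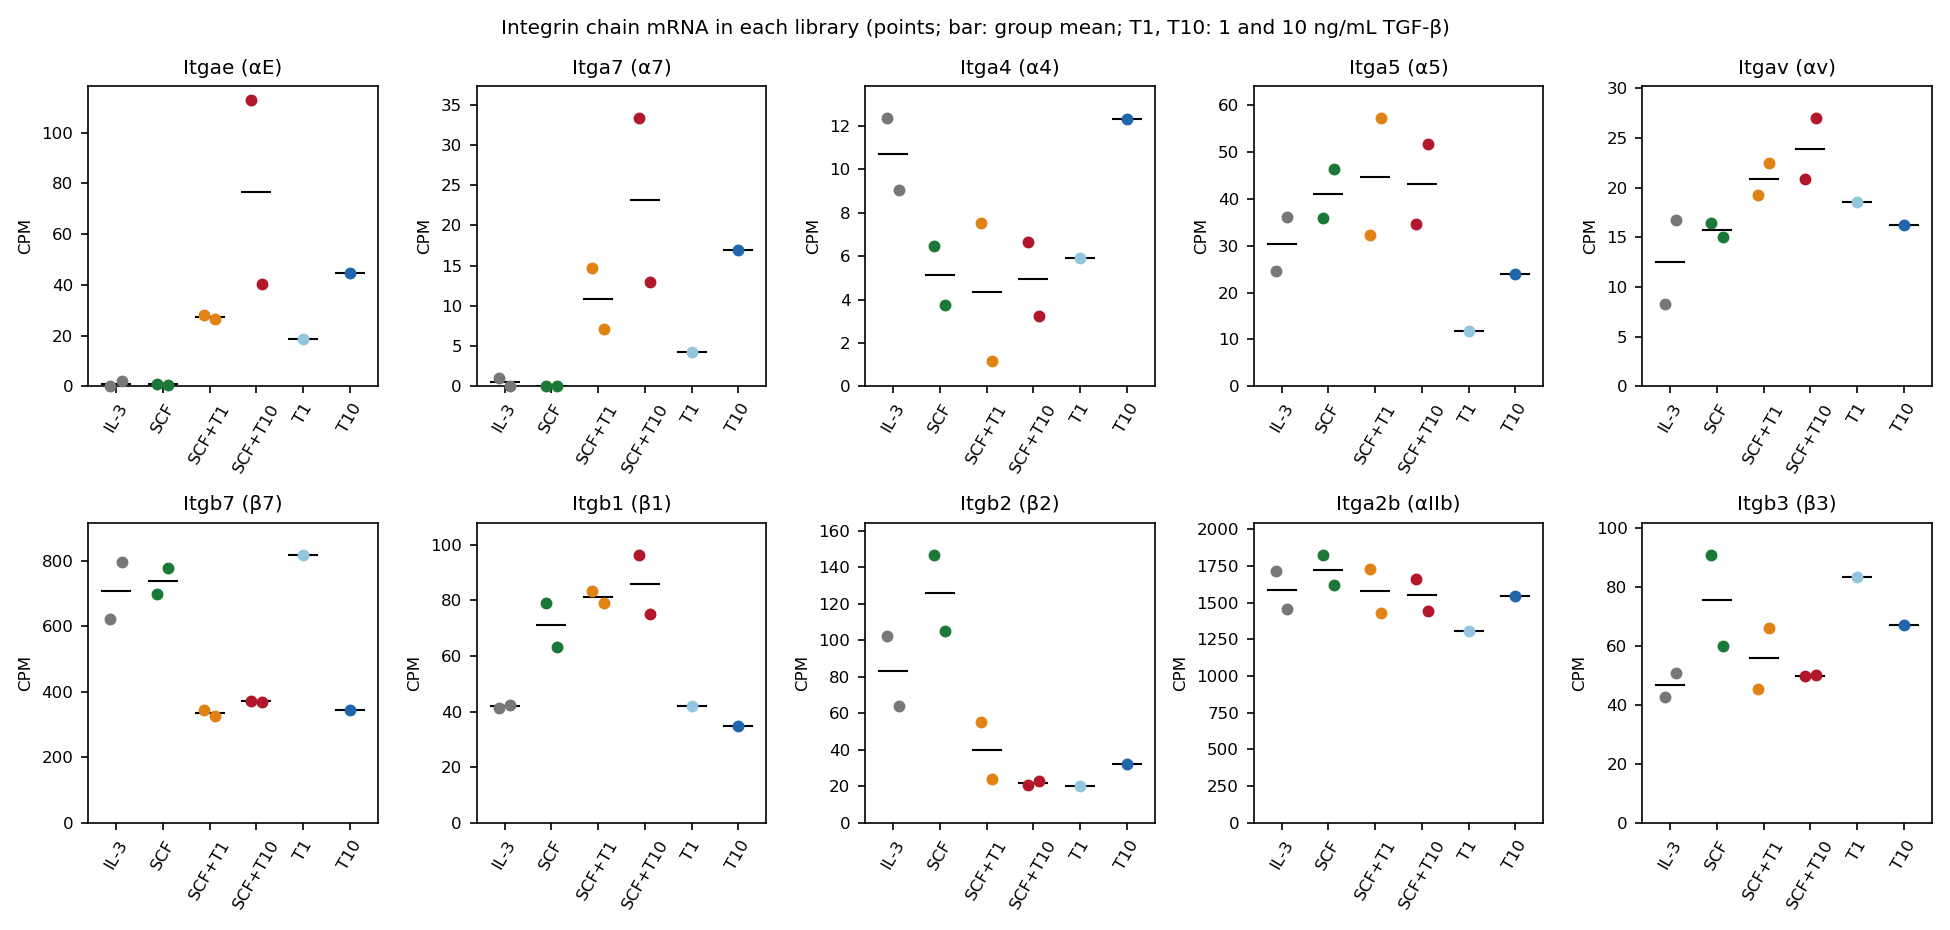
CPM of each of the 10 chains in each library, 1 panel per gene with its own axis from 0 and a bar at the group mean (groups of 2 libraries; TGF-β alone has 1 library per dose). Itgae and Itga7 are near 0 without TGF-β, Itgb1 is higher in the 6 libraries with SCF, and Itgb7 is lower in the 4 libraries with both factors.

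β2, the chain of the leukocyte integrins, fell with TGF-β whether SCF was present or not. Itgb2 (ENSMUSG00000000290, chromosome 10, 77530252 to 77565708, plus strand) stood at 102 and 64.1 CPM in IL-3 and at 147 and 105 CPM in SCF. It stood at 55.2 and 24.2 CPM in SCF with 1 ng/mL TGF-β, 20.9 and 22.7 with 10 ng/mL, and 20.2 and 32.4 in TGF-β alone at 1 and 10 ng/mL. All 6 libraries with TGF-β lay below all 4 without it.

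When TGF-β was added to SCF, the log2 fold change of Itgb2 was -1.63 ± 0.28 at 1 ng/mL (adjusted p = 0.00206, edgeR) and -2.54 ± 0.31 at 10 ng/mL (adjusted p = 4.37e-05, edgeR). Both calls were kept in all 18 alternatives, and the former value was -2.37 without replicate 1 of the 1 ng/mL combination. The doses differed by -0.91 ± 0.34 (unadjusted p = 0.0148, adjusted p = 1.00, edgeR), with both libraries of the higher dose below both of the lower. TGF-β alone against IL-3 gave -1.72 ± 0.34 (adjusted p = 0.00750, edgeR). That call was lost without replicate 1 of IL-3 (-1.33, adjusted p = 0.136) and without the 1 ng/mL library (-1.37, adjusted p = 0.114), over a range of 2.01e-10 to 0.136. SCF against IL-3 gave 0.59 ± 0.27, which did not pass the test (adjusted p = 0.201, edgeR).

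The α chains that pair with β2 are αL (Itgal), αM (Itgam), αX (Itgax, the CD11c antigen) and αD (Itgad), and αX went the other way. Itgax had 2 and 0 counts in IL-3, 1 and 0 in SCF, 18 and 17 in SCF with 1 ng/mL TGF-β, 37 and 13 with 10 ng/mL, and 21 and 50 in TGF-β alone at 1 and 10 ng/mL. Its 6 libraries with TGF-β lay above the 4 without it, and it too could pass the filter only through them. Itgal had 6 and 5 counts in IL-3, 0 in both SCF libraries and 3 to 7 in those with TGF-β, while Itgam and Itgad had at most 1.

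Pooled Itgax counts with TGF-β alone were 48.3-fold above IL-3 (95% counting interval 12.9 to 406), at a log2 fold change of 5.31 ± 0.74 (adjusted p = 0.000364, edgeR). It was lower in the combinations than with TGF-β alone, at a log2 fold change of -1.36 ± 0.38 (adjusted p = 0.0146, edgeR). That call was lost without the library of 10 ng/mL TGF-β alone (-0.80, adjusted p = 0.347) and with DESeq2 (0.121), over a range of 0.00109 to 0.347. Against SCF, where it is named after its values were seen because it stayed below 20 CPM, it was 30.9-fold higher with 1 ng/mL (5.19 to 1254, adjusted p = 0.00615, edgeR) and 43.9-fold higher with 10 ng/mL (7.53 to 1768, adjusted p = 0.00108, edgeR). The former was not called without replicate 2 of SCF (adjusted p = 0.0546), with limma-voom (0.0556) or with DESeq2 (0.0509), over a range of 1.92e-06 to 0.0556. Leaving out replicate 1 of IL-3 or replicate 1 of SCF leaves 0 counts to compare with, so these folds rest on the 1 or 2 counts there. The calls of Itgax against IL-3 and SCF add no evidence of a rise, because it passed the filter only through libraries with TGF-β.

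Summed per kilobase, these α chains came to 2.04% and 3.26% of Itgb2 in IL-3 and 0.215% and 0.403% in SCF. They came to 10.4% and 30.9% in SCF with 1 ng/mL TGF-β, 56.9% and 29.0% with 10 ng/mL, and 63.3% and 80.4% in TGF-β alone at 1 and 10 ng/mL. The β chain remained the higher transcript in all 10 libraries. Of other cells that carry αX, the dendritic cell list is given beside Itgae above. The macrophage list summed to 14.2 to 27.7 CPM with and 25.1 to 36.0 without TGF-β, with C1qb at 0 throughout.

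**Figure D5:**
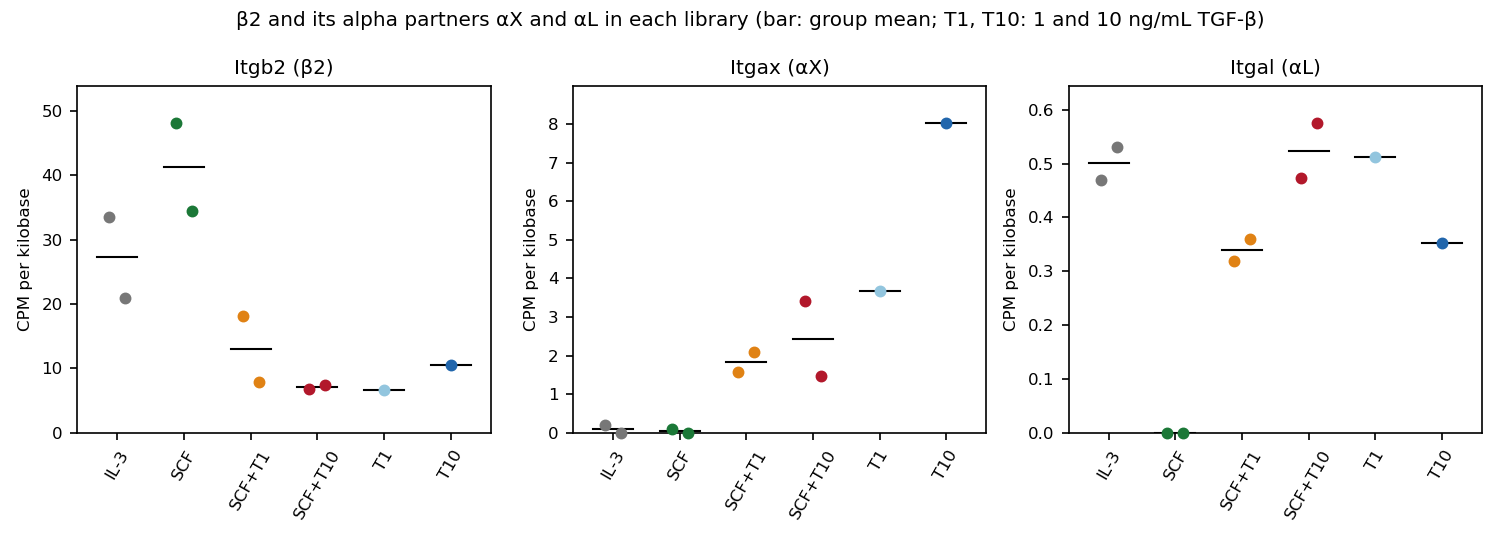
CPM per kilobase of merged exons of Itgb2 and of its partners Itgax and Itgal in each library, with a bar at the group mean. Itgb2 is lower and Itgax higher in the 6 libraries with TGF-β than in the 4 without it.

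The other 16 integrin chains were mostly not measurable: 3 of them passed the filter, Itga6, Itgax and Itgb6. Of these, only Itgax was called. It rose with 1 ng/mL TGF-β added to SCF, with 10 ng/mL and with TGF-β alone, beside 1.89%, 3.78% and 1.36% of all genes. It fell with SCF and TGF-β against TGF-β alone, beside 11.4% of all genes. Nothing is read from these counts, because Itgax passed the filter only through libraries with TGF-β. Itga6, a laminin receptor chain, ran from 3.13 to 7.11 CPM in the 6 libraries with SCF and from 0 to 1.68 in the 4 without it. SCF against IL-3 gave 2.76 ± 0.95 for Itga6, which did not pass the test (adjusted p = 0.0817, edgeR). Itgb6 ran from 3.35 to 7.58 CPM in the 6 libraries with TGF-β and from 0 to 1.54 in the 4 without it. These levels rest on few counts, 6 to 11 a library for Itgb6 with TGF-β.

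Among 24 genes of integrin ligands, 6 passed the filter. Cdh1, which encodes the αEβ7 ligand E-cadherin, did not exceed 4.21 CPM, and Madcam1, Vcam1 and Vtn had 0 counts in all libraries. With SCF against IL-3, which called 9.17% of all genes, 2 of the 6 ligands rose and 0 fell: the laminin chain Lama5 by 1.31 ± 0.26 (adjusted p = 0.00473, edgeR) and von Willebrand factor, Vwf, by 1.06 ± 0.18 (adjusted p = 0.00161, edgeR). Between the combinations and TGF-β alone, a comparison that called 24.7% of all genes, 2 rose and 0 fell, again Lama5 by 1.18 ± 0.25 and Vwf by 1.67 ± 0.18 (adjusted p = 0.00264 and 7.44e-06, edgeR). With TGF-β added to SCF 1 ligand fell at each dose (2.75% of all genes fell at 1 ng/mL and 4.59% at 10 ng/mL), at 1 ng/mL Icam2, a ligand of αLβ2, at -1.02 ± 0.24 (adjusted p = 0.0209, edgeR), and at 10 ng/mL Icam4, which is named after its values were seen. TGF-β alone, the comparison of doses and the interaction called 0 of the 6. Lama5 with SCF against IL-3 was not called without replicate 1 of IL-3 (0.83, adjusted p = 0.0618). The Icam2 call was lost without any 1 of the 4 libraries compared (adjusted p from 0.0947 to 0.127), and with DESeq2 (0.216), the highest of its alternatives.

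Among 33 genes of talins, kindlins and adhesion adaptors, which couple the β chain tails to actin, 25 passed the filter. With SCF against IL-3, 3 of the 25 rose and 2 fell, beside 5.71% and 3.46% of all genes. They included filamin A, Flna, up by 1.16 ± 0.25, the small GTPase Rap1a, up by 0.81 ± 0.19, Cib1, a binder of the αIIb tail, up by 0.77 ± 0.22, and vinculin, Vcl, at -0.68 ± 0.16 (adjusted p = 0.00767, 0.0132, 0.0370 and 0.0141, edgeR). Each of these calls was lost in some fit without a single library: that of Vcl without replicate 2 of IL-3 or replicate 2 of SCF (adjusted p = 0.206 and 0.140), that of Flna without replicate 1 of IL-3 or replicate 2 of SCF (adjusted p = 0.103 and 0.108), that of Rap1a without replicate 2 of IL-3 or either library of SCF (0.166, 0.0627 and 0.0576), and that of Cib1 without either library of IL-3 (0.193 and 0.143) or replicate 2 of SCF (0.231).

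With SCF and TGF-β against TGF-β alone, 10 adaptors rose and 3 fell, in a comparison that called 24.7% of all genes. The rises included Flna by 1.70 ± 0.25, Rap1a by 1.29 ± 0.19 and kindlin-2, Fermt2, by 1.03 ± 0.32, and the falls included Dok1, a negative regulator of integrin activation, at -0.83 ± 0.19 (adjusted p = 0.00012, 0.000144, 0.0251 and 0.00407, edgeR). With 1 ng/mL TGF-β added to SCF 2 adaptors rose and 1 fell, beside 1.89% and 2.75% of all genes, including PINCH-1, Lims1, at 0.95 ± 0.15 and Dok1 at -0.81 ± 0.21 (adjusted p = 0.000885 and 0.0376, edgeR). With 10 ng/mL 4 rose and 2 fell, beside 3.78% and 4.59% of all genes, including Fermt2 at 1.40 ± 0.32, Lims1 at 0.87 ± 0.15, the kinase Ptk2b at 0.72 ± 0.15 and Fyb at -0.70 ± 0.19 (adjusted p = 0.00972, 0.00108, 0.00524 and 0.0329, edgeR). With TGF-β alone 0 rose and 1 fell, beside 1.36% and 2.12% of all genes, namely kindlin-3 (Fermt3), the kindlin of blood cells, at -0.51 ± 0.13 (adjusted p = 0.0320, edgeR). Fermt3 and Src are further named after their values were seen. Fermt3 also fell with 10 ng/mL added to SCF, at -0.61 ± 0.12 (adjusted p = 0.00456, edgeR). Src, with group means below 20 CPM, fell with SCF against IL-3 at -2.77 ± 0.54 (adjusted p = 0.00403, edgeR). It rose with 1 and 10 ng/mL added to SCF, at 2.45 ± 0.54 and 3.14 ± 0.51 (adjusted p = 0.0125 and 0.000605, edgeR).

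Several adaptor calls were lost when a single library was left out. Dok1 with 1 ng/mL TGF-β lost its call without any 1 of the 4 libraries compared (adjusted p = 0.0758 to 0.242), and Dok1 with both factors lost it without the library of 1 ng/mL TGF-β alone (0.0717). Fermt2 with 10 ng/mL lost it without replicate 2 of SCF or either library of the combination (0.0937, 0.0670 and 0.0513), and Fermt2 with both factors without either library of TGF-β alone or replicate 2 of the 1 ng/mL combination (0.0964, 0.137 and 0.0562). Fyb lost it without any 1 of the 4 libraries compared (0.0615 to 0.244), and Ptk2b without replicate 1 of SCF or replicate 2 of SCF with 10 ng/mL (0.0637 and 0.0853). Fermt3 with TGF-β alone lost its call without any 1 of the 4 libraries compared. The levels of Fermt2 and Fermt3 were far apart: Fermt2 ran from 7.52 to 24.9 CPM and Fermt3 from 406 to 695 CPM over the 10 libraries.

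The genes whose profile over the 10 libraries was most like that of Itgae, out of 7081 searched, were Mcpt2 (Pearson r = 0.974 of log2 CPM), Rasal3 (0.971), Cyfip1 (0.970), Papolg (0.970) and Marveld2 (0.967). Mcpt2 encodes a chymase of mucosal mast cells. It stood at 9.78 and 13.2 CPM in IL-3, 20.9 and 21.3 in SCF, 3756 and 2857 in SCF with 1 ng/mL TGF-β, 6677 and 4024 with 10 ng/mL, and 599.6 and 3945 in TGF-β alone at 1 and 10 ng/mL. The library of 1 ng/mL TGF-β alone was the lowest of the 6 with TGF-β for both genes. For Itgb7 the most similar were Cers6 (0.935), Pik3r6 (0.930), Arhgef10l (0.926), Trim26 (0.926) and Gpr146 (0.918). These correlations rank genes over libraries that share their groups and have no test.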

How the data were processed

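RNA was sequenced from 10 libraries of bone marrow-derived mast cells in 6 groups. Per the labels' protocols, cells were lysed in TCL buffer and full-length cDNA was made by SmartSeq2 and sequenced as paired reads of 38 bases. Libraries of this kind do not mark strand. The submitters' processing notes name the tools STAR, HTSeq and DESeq2 and the build GRCm38 (mm10) (versions not given in the sources used here). As deposited, the values are whole-number read counts per gene. Of all counted reads, 16.4% to 26.6% fell in the 49671 gene rows, and the rest in 5 rows that name no gene, which were left out. The lowest share was that of 1 ng/mL TGF-β alone, followed by 19.9% in replicate 2 of IL-3 and 20.5% in 10 ng/mL TGF-β alone.

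Counts were fitted with edgeR 4.0.16 in R 4.3.3 (scaling by TMM, filterByExpr by group, quasi-likelihood F test, 1 mean for each of 6 groups over all 10 libraries, 4 residual degrees of freedom), and p-values were adjusted by Benjamini-Hochberg over 11247 genes with a threshold of 0.05. The 2 groups with 1 library took their spread from the others. The standard error is approximate: the absolute log2 fold change divided by the root of F. Levels are TMM-scaled CPM, divided by merged exon length (GENCODE vM21) where genes are compared. Ratios had 0.5 counts added to each chain. A control group with 0 counts was set to 3 counts, and one with 1 to 3 counts gave a pooled count ratio with an exact 95% interval.

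The chains and all gene lists were chosen with earlier results of these data known. From each list of other chains, ligands and adaptors, at most 4 called genes of at least 20 CPM with the largest change are named, and the 5 protein-coding genes most correlated with Itgae and with Itgb7. Alternatives were DESeq2 size factors, DESeq2 1.42.0, limma-voom (limma 3.58.1), other filters, a replicate block, only the groups compared and each library left out. Chosen after seeing the data were the fits without a library of TGF-β alone and without the second libraries of the 3 groups with SCF. The fit was tested on simulated data for SCF against IL-3. It called 40 of 98 genes changed 2-fold and 78 of 99 changed 4-fold, with 9 false calls, and 1 gene where none was changed. A chain that was not called may therefore still differ. Deviations from the group mean of libraries with the same replicate number correlated at -0.003 to 0.022 between IL-3 and the other groups and at 0.197 to 0.231 among the groups with SCF, and no label ties the numbers, so the fit has no block. Replicates differed by more than counting noise (chi-square per gene 3.30 to 4.24).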

Additional observations from a re-analysis of the deposited data

How the results depend on the processing

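With 2 libraries a group, or 1, and 4 residual degrees of freedom, changes of Itga4, Itga7, Itgae or Itgav of a few counts per library could not be resolved. The number of called chains, 4 at each dose of TGF-β against SCF, was 3 to 5 in every alternative run. With SCF against IL-3, 1 chain was called; the number was 0 with DESeq2, 3 without a filter, 2 in a fit of only the groups compared, 0 to 2 with single libraries left out and 3 without the second libraries of the 3 groups with SCF. Between the doses of TGF-β with SCF it was 0, then 1 without a filter, 0 to 1 with single libraries left out and 2 without the second libraries. With TGF-β alone it was 2, then 1 with limma-voom, 4 in a fit of only the groups compared, 0 to 3 with single libraries left out and 4 without the second libraries. With SCF and TGF-β against TGF-β alone it was 3, then 1 to 4 with single libraries left out and 6 without the second libraries. For the interaction it was 0, then 1 without a filter, 0 to 1 with single libraries left out and 1 without the second libraries. Without a filter, Itga7 was also called with TGF-β alone (adjusted p = 0.000901, edgeR). Itgae was then also called with SCF and TGF-β against TGF-β alone (adjusted p = 0.0435, edgeR). A replicate block left 4, 4 and 0 called chains in the 3 comparisons among groups with SCF, where same-numbered libraries deviated together, and changed no chain's call there. Elsewhere it gave 3 called chains with SCF against IL-3, 4 with TGF-β alone, 4 with both factors against TGF-β alone and 2 for the interaction. The direction reversed in 3 of 1147 values for single genes, all on leaving out a library of TGF-β alone: Itgb7 with both factors against TGF-β alone (-1.22 to 0.027 over the libraries left out) and Itga7 in the same comparison (-0.064 to 1.93) without 1 ng/mL, and Itgb7 with TGF-β alone (-1.02 to 0.21) without 10 ng/mL. Of the rest, 1032 kept their side of the threshold, 69 lost a call and 43 gained one. The cause was not tested.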
